A study of Rattus norvegicus with 24 samples.

Results

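Creatine kinase, creatine supply and adenine nucleotide genes were followed in the tibialis anterior (TA) of aged rats whose nerve was silenced, allowed to recover and silenced again. The 9 genes were chosen by symbol: the creatine kinases Ckm, Ckmt2 and Ckb, the creatine transporter gene Slc6a8, the creatine synthesis gene Gamt, the AMP deaminases Ampd1, Ampd2 and Ampd3, and the adenylate kinase gene Ak1. They are 9 of the 13458 symbols in the deposited table, each with 1 row, and all 9 passed the filter for testing (above 0 in at least 3 limbs).

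Phosphocreatine is the store from which creatine kinase rebuilds ATP at the onset of contraction. Cytosolic creatine kinase makes ATP beside the myofibrils, and the mitochondrial enzyme charges creatine again where ATP is made. Adenylate kinase turns ADP into ATP and AMP, and AMP deaminase removes the AMP as IMP, which opens the purine nucleotide cycle of skeletal muscle.

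RNA was sequenced from both TA muscles of 12 male Fischer 344 rats aged 23 ± 1 months. In 9 rats, tetrodotoxin (TTX), a blocker of voltage-gated sodium channels, was delivered to the left common peroneal nerve so that the ankle dorsiflexors could not contract. Left limbs came from 3 rats after 6 to 7 days of TTX (atrophy), from 3 rats after the same exposure and 9 days without TTX (recovery), and from 3 rats that then had a second exposure of 5 to 6 days (repeated atrophy). The untreated right limbs of these 9 rats formed the control group, so every control limb came from an animal whose other leg was under TTX or, in the 3 recovery rats, had been until 9 days before. In the 3 sham rats, 1 for each time point, surgery was carried out with no TTX, and their left and right limbs formed the sham left and sham right groups. Values are CPM, read counts scaled so that each limb sums to 1000000, and the depth inferred from the smallest steps of the values was between 18900000 and 30900000 reads per limb.

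Some limbs stood apart from their group. The acetylcholine receptor subunit genes and other genes known to rise in silenced muscle (6 check genes) summed to between 59.4 and 390 CPM in control and between 2058 and 3878 CPM after repeated atrophy. After atrophy they summed to 2457 CPM in rat 362 and 1968 CPM in rat 372, but to 403 CPM in rat 367. Among the sham limbs, both limbs of rat 379 had the highest sums (392 CPM left and 376 CPM right). Summed markers of fast myofibres lay between 198334 and 260248 CPM in control, between 86038 and 206203 CPM after atrophy and between 109553 and 148850 CPM after repeated atrophy, where all 3 limbs were below the lowest control limb. Of these 10 markers 1 fell after atrophy and 2 after repeated atrophy, and 0 rose, while 2.33% and 6.24% of all rows fell. The markers did not all move with the sum. Pvalb had 2150, 1968 and 2413 CPM in the left limbs of rats 364, 365 and 366, against 1584, 1413 and 1767 CPM in the right. The part of these limbs and markers in the results was not tested, and in whole muscle fewer myofibres and less RNA per myofibre cannot be told apart.

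Of the 5 genes that changed against control, 3 had a promoter entry in RefSeq (build GRCr8), and these are shown because one fell, one rose and one went both ways. Each run holds 250 bases before and 50 bases after the annotated start, in the direction of the gene. Capitals mark the E-box CANNTG, the motif of myogenic helix-loop-helix factors, and the GC box GGGCGG on either strand.

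Ckmt2, chr2:24845462-24845761, minus strand: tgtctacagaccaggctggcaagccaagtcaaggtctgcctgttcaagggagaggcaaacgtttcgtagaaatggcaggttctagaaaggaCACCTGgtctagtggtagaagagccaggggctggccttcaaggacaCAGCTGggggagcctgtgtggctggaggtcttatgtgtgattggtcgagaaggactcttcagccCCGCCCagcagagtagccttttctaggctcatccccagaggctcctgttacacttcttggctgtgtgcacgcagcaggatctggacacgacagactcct

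Slc6a8, chrX:156535767-156536066, plus strand: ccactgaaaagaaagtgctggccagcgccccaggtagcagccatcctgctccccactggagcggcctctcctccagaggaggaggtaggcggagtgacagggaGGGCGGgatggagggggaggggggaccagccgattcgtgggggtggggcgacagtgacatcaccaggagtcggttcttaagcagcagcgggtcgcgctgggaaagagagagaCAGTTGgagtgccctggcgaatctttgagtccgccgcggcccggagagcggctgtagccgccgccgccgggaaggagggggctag

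Gamt, chr7:10099034-10099333, plus strand: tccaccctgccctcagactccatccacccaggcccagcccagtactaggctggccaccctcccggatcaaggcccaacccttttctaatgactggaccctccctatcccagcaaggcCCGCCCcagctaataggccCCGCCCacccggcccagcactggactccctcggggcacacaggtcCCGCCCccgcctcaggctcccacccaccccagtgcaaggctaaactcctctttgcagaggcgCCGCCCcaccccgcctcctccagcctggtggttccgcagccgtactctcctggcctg

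The Ckmt2 window held 2 E-boxes, of which the one that starts at base -113 reads CAGCTG, and 1 GC box at base -49. The Slc6a8 window held 1 E-box at base -35 and 1 GC box at base -147. The Gamt window held no CANNTG and 4 GC boxes, all on the opposite strand. CANNTG is in 72.1% of all 33469 promoters of the same length, CAGCTG, which is 1 form of it, in 15.1% and GGGCGG in 33.1%. Among the other members, Ckm had 3 E-boxes (2 of them CAGCTG), Ampd1 had 2, Ampd2 had 1 and Ckb had none. In all, 7 of the 9 members were matched, and Ampd3 and Ak1 were not.

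The levels of the 9 genes differed widely in control muscle. Per kilobase of the deposited row length, Ckm stood at 19855 ± 3857 CPM per kb (SD, n = 9 limbs). Ckmt2 followed at 703 ± 356, Ampd1 at 448 ± 93.5 and Ak1 at 224 ± 97.4 CPM per kb. Lower levels were those of Slc6a8 at 36.8 ± 5.35, Ampd3 at 15.2 ± 18.9, Gamt at 7.40 ± 2.94, Ckb at 6.36 ± 1.78 and Ampd2 at 1.90 ± 0.62 CPM per kb. Ckmt2 and Ampd1, Ampd3 and Gamt, and Gamt and Ckb are neighbours in this order whose means differ by less than the larger of their SDs.

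**Figure D1:**
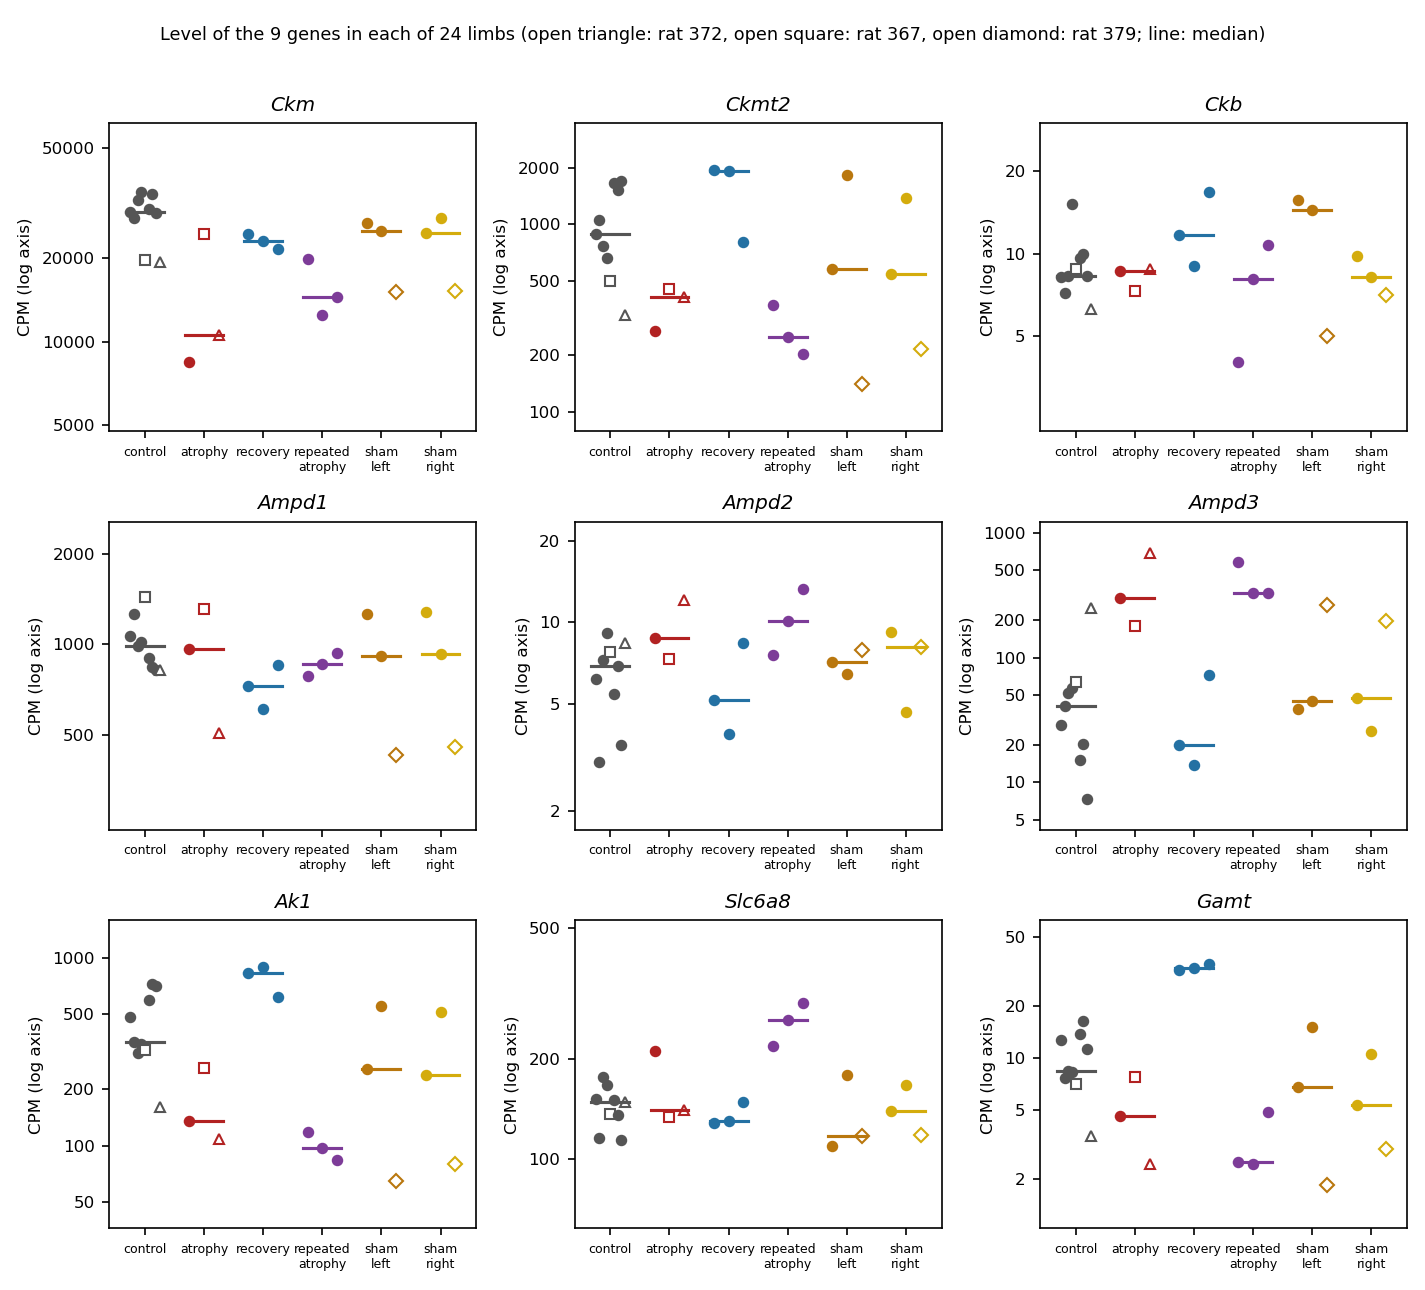
Level of each gene in CPM (log axis) in the 24 limbs, by group; each point is 1 limb and each line the median of its group. Open symbols mark rats 372, 367 and 379: the right limb of rat 372 (control, 251 CPM) and both limbs of rat 379 (sham, 264 and 198 CPM) lie with the silenced limbs for Ampd3.

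The largest differences were in Ampd3, the isoform of AMP deaminase first described in red blood cells (chromosome 1, 164885320 to 164929888, plus strand, rn7). The 9 control limbs had 7.44 to 251 CPM with a median of 40.8. Atrophy limbs had 302 CPM in rat 362, 180 CPM in rat 367 and 689 CPM in rat 372, and repeated atrophy limbs had 581, 332 and 330 CPM in rats 364, 365 and 366. Recovery limbs had 19.9, 13.8 and 72.6 CPM in rats 369, 370 and 371.

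Every limb under TTX thus had more Ampd3 than 8 of the 9 control limbs, and 5 of the 6 also exceeded the right limb of rat 372, the highest control limb. After recovery all 3 limbs lay within the control range. Ampd3 rose after atrophy (log2 FC 3.13, SE 0.72, limma adjusted p = 0.0093) and after repeated atrophy (log2 FC 3.38, SE 0.72, adjusted p = 0.0018). It fell from atrophy to recovery by 3.57 (SE 0.88, adjusted p = 0.014) and rose from recovery to repeated atrophy by 3.82 (SE 0.88, adjusted p = 0.0055). With the animal as a block these differences were -1.11 (adjusted p = 0.758) and 1.99 (adjusted p = 0.226), and neither passed.

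Left limbs exceeded right limbs of the same animal for Ampd3 in 3 of 3 rats after atrophy (by 3.33, 1.49 and 1.46 on the log2 scale in rats 362, 367 and 372) and in 3 of 3 after repeated atrophy (3.80, 2.64 and 2.51 in rats 364, 365 and 366). In the sham rats the same difference was -0.28, 0.77 and 0.41. In the recovery rats it was 0.38 and -0.54 in rats 369 and 370 but 3.13 in rat 371, whose left limb also had the highest check gene sum of its group (735 CPM). Set against its own right limb, with the animal as a block, Ampd3 rose after repeated atrophy (log2 FC 2.98, SE 0.59, adjusted p = 0.0071) but did not pass after atrophy (2.09, SE 0.59, adjusted p = 0.165).

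Ampd1, the AMP deaminase of adult skeletal muscle (chromosome 2, 190598819 to 190619939, plus strand), did not pass in any comparison. Its control limbs lay between 823 and 1440 CPM with a median of 987. Limbs of the atrophy group had 967, 1318 and 508 CPM, those of the recovery group 729, 611 and 852 CPM and those of the repeated atrophy group 786, 862 and 934 CPM. Adjusted p-values vs control were 0.567, 0.226 and 0.518 in that order. The lowest levels of the series, 430 and 455 CPM, were in the left and right limbs of sham rat 379. Ampd2, the isoform of most other tissues, stayed between 3.04 and 13.2 CPM in all 24 limbs, with adjusted p-values of 0.186, 0.847 and 0.0904.

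The mix of AMP deaminase messages therefore differed between limbs. Computed per kilobase, Ampd3 made up 0.519% to 14.9% (median 1.84%) of the 3 genes in control. It made up 15.3%, 7.32% and 43.6% after atrophy in rats 362, 367 and 372, between 1.28% and 4.68% after recovery and between 16.9% and 29.9% after repeated atrophy. Per kilobase, Ampd1 remained the largest share in all 24 limbs and was lowest, at 55.5%, in the atrophy limb of rat 372. By CPM without regard to length, Ampd3 was the larger in that limb (57.0% against 42.0% for Ampd1). Sham rat 379 had 26.0% Ampd3 in the left and 20.0% in the right limb, against 1.58% to 2.74% in the other 4 sham limbs.

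**Figure D2:**
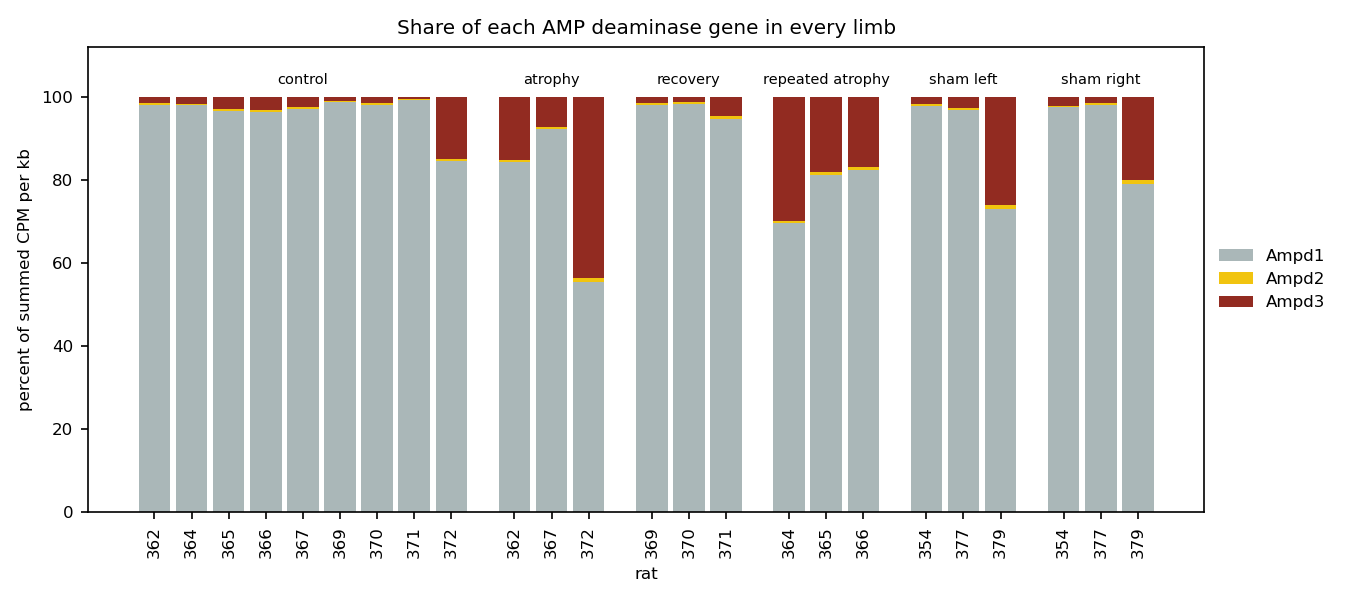
Share of Ampd1, Ampd2 and Ampd3 in their summed CPM per kb, in percent, for every limb; the numbers under the bars are the rats. Ampd3 takes a median of 1.84% in control and 18.1% after repeated atrophy, and the right limb of rat 372 (14.9%) and both limbs of rat 379 (26.0% and 20.0%) stand out among the limbs without TTX.

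Ak1, the cytosolic adenylate kinase of muscle (chromosome 3, 15915818 to 15923043, plus strand), moved the other way. Control limbs had 161 to 723 CPM with a median of 357. Atrophy limbs had 135, 260 and 109 CPM in rats 362, 367 and 372, recovery limbs had 826, 886 and 616 CPM in rats 369, 370 and 371, and repeated atrophy limbs had 118, 97.8 and 84.5 CPM in rats 364, 365 and 366.

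All 3 repeated atrophy limbs were below the lowest control limb, whereas the atrophy limb of rat 367 was above it. Ak1 fell by 1.36 (log2, SE 0.36, limma adjusted p = 0.0138) after atrophy and by 2.02 (SE 0.36, adjusted p = 4.9e-04) after repeated atrophy. Between recovery and repeated atrophy it dropped by 2.94 (SE 0.44, adjusted p = 7.5e-04). The difference of recovery from control did not pass (adjusted p = 0.114), and recovery exceeded atrophy by 2.28 (SE 0.44, adjusted p = 0.0061). Both differences between treated groups lost their call with the block, at -1.95 (adjusted p = 0.077) from recovery to repeated atrophy and 1.09 (adjusted p = 0.592) from atrophy to recovery.

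Within animals, Ak1 was lower in the left limb in 3 of 3 rats after atrophy and 3 of 3 after repeated atrophy, with mean differences of -0.90 ± 0.81 and -1.76 ± 0.23 (SD, n = 3). The sham mean was -0.03 ± 0.24. The animal block kept the fall after repeated atrophy (adjusted p = 0.0035) and lost that after atrophy (adjusted p = 0.169).

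Of the creatine kinases, Ckm encodes the cytosolic muscle enzyme (chromosome 1, 79061463 to 79071722, plus strand) and is among the most abundant messages of muscle. Control limbs had 19462 to 34546 CPM with a median of 29458. The 3 atrophy limbs had 8462, 24369 and 10611 CPM in rats 362, 367 and 372, the recovery limbs 24396, 23110 and 21564 CPM, and the repeated atrophy limbs 19817, 12514 and 14541 CPM.

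The groups overlapped: the atrophy limb of rat 367 lay within the control range, and so did the repeated atrophy limb of rat 364. Ckm passed in none of the 3 comparisons with control (log2 FC -1.11, SE 0.43, limma adjusted p = 0.072 after atrophy, -0.28, SE 0.43, adjusted p = 0.731 after recovery and -0.87, SE 0.43, adjusted p = 0.134 after repeated atrophy). Without rat 367's atrophy limb the first value was -1.56 with an adjusted p of 0.010. Left limbs were lower than right limbs in 3 of 3 rats after recovery (by 0.31, 0.56 and 0.44 on the log2 scale) and in 3 of 3 after repeated atrophy.

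Ckmt2, the mitochondrial creatine kinase of striated muscle (chromosome 2, 23079920 to 23110388, minus strand), had 329 to 1702 CPM in control with a median of 891. The atrophy limbs had 269, 455 and 412 CPM, the recovery limbs 1953, 1926 and 806 CPM and the repeated atrophy limbs 374, 250 and 203 CPM. Both groups of silenced limbs overlapped control only because of the right limb of rat 372, and every other control limb (499 CPM or more) was above all 6.

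Ckmt2 fell after atrophy (log2 FC -1.27, SE 0.43, limma adjusted p = 0.0415) and after repeated atrophy (log2 FC -1.73, SE 0.43, adjusted p = 0.0048). It rose from atrophy to recovery by 1.97 (SE 0.53, adjusted p = 0.019) and fell from recovery to repeated atrophy by 2.44 (SE 0.53, adjusted p = 0.0039), but with the block these differences were 0.34 (adjusted p = 0.90) and -1.43 (adjusted p = 0.185). Left minus right was -1.72, -0.14 and 0.32 after atrophy, so that 1 of 3 rats carried the within-animal difference. After repeated atrophy it was -1.50, -1.62 and -1.71. As a block, the animal left the fall after repeated atrophy (adjusted p = 0.011) and removed that after atrophy (adjusted p = 0.450).

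Ckb, the brain-type creatine kinase (chromosome 6, 130729420 to 130732302, minus strand), was near 10 CPM throughout, between 4.02 and 16.8 CPM in the 24 limbs. It did not pass vs control (adjusted p = 0.829, 0.322 and 0.437 after atrophy, recovery and repeated atrophy). Within the creatine kinases, Ckm held between 92.3% and 98.6% of the summed CPM per kb in the 18 limbs of the TTX rats, and Ckmt2 held 7.39%, 7.68% and 3.59% in the recovery limbs of rats 369, 370 and 371 against 1.66% to 5.50% in control.

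Slc6a8 encodes the transporter that brings creatine into the fibre (chromosome X, 151384675 to 151393979, plus strand). Its control limbs had 114 to 176 CPM with a median of 149. Atrophy limbs had 212, 134 and 140 CPM, recovery limbs 128, 130 and 149 CPM and repeated atrophy limbs 220, 262 and 296 CPM.

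All 3 repeated atrophy limbs exceeded all 9 control limbs, and after the first TTX period only rat 362 did. Slc6a8 rose after repeated atrophy (log2 FC 0.85, SE 0.16, limma adjusted p = 6.8e-04; with the animal as a block 0.77, SE 0.17, adjusted p = 0.0096). After atrophy the adjusted p was 0.533. After rescaling of each limb by TMM, a trimmed mean of the log ratios, the difference was 0.47 (adjusted p = 0.0152), and under quantile normalization it was 0.41 and no longer passed (adjusted p = 0.053).

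Gamt encodes guanidinoacetate methyltransferase, the last enzyme of creatine synthesis (chromosome 7, 9448628 to 9451779, plus strand). Its level was 3.57 to 16.4 CPM in control with a median of 8.45. The atrophy limbs had 4.66, 7.76 and 2.44 CPM, the recovery limbs 32.6, 33.2 and 35.3 CPM and the repeated atrophy limbs 2.51, 2.45 and 4.92 CPM.

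Gamt in recovery was above all 9 control limbs, and the 3 limbs lay close to each other. It rose after recovery (log2 FC 1.76, SE 0.33, limma adjusted p = 0.0058) and fell after repeated atrophy (log2 FC -1.30, SE 0.33, adjusted p = 0.0059), and from recovery to repeated atrophy it dropped by 3.06 (SE 0.41, adjusted p = 3.1e-04; with the block by 2.38, adjusted p = 0.064). Left exceeded right by 1.18, 0.98 and 1.55 in the recovery rats and was lower by 1.31, 1.45 and 0.66 in the repeated atrophy rats. The block kept the fall (adjusted p = 0.0158) and lost the rise (1.24, SE 0.29, adjusted p = 0.111).

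Markers of fibroblasts moved with the recovery group: the 6 genes of that list summed to between 1235 and 2352 CPM after recovery against 212 to 626 CPM in control. After recovery 5 of the 6 rose, and leukocyte markers rose in 3 of 6, beside 4.4% of all rows. Satellite cell markers summed to 29.9 to 124 CPM after atrophy and 45.4 to 71.7 CPM after repeated atrophy against 18.1 to 48.0 CPM in control. But only 1 of the 4 rose after atrophy (20.3% of all rows), and 1 rose and 1 fell after repeated atrophy (28.1% and 6.24% of all rows). Myf5 made the difference in the sum, with 85.96 CPM in the left and 11.6 CPM in the right limb of rat 372, while Pax7, the defining marker, was at 0 in the right limbs of rats 364 and 367. The part of these cells in the change of Gamt, Ampd3 or the other members was not tested.

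The 3 comparisons with control share the same 9 control limbs. Counted over the members, 3 of 9 passed after atrophy (1 higher and 2 lower), while 22.6% of all 14031 rows passed, 20.3% higher and 2.33% lower. After recovery 1 of 9 passed, higher, against 7.73% of all rows and 4.4% higher. After repeated atrophy 5 of 9 passed, 2 higher and 3 lower, against 34.3% of all rows, 28.1% higher and 6.24% lower. Rescaling moved the median of all rows from 0.22 to 0.00 after atrophy and from 0.20 to -0.01 after repeated atrophy, and 3, 1 and 5 members passed again, beside 9.68%, 12.1% and 25.2% of all rows. With the animal as a block 0, 0 and 5 members passed, and 0.0%, 0.0641% and 27.1% of all rows. The atrophy count rested on single limbs: it was 0 without the left limb of rat 362 or of rat 372, 5 without that of rat 367 and 5 without the right limb of rat 372.

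**Figure D3:**
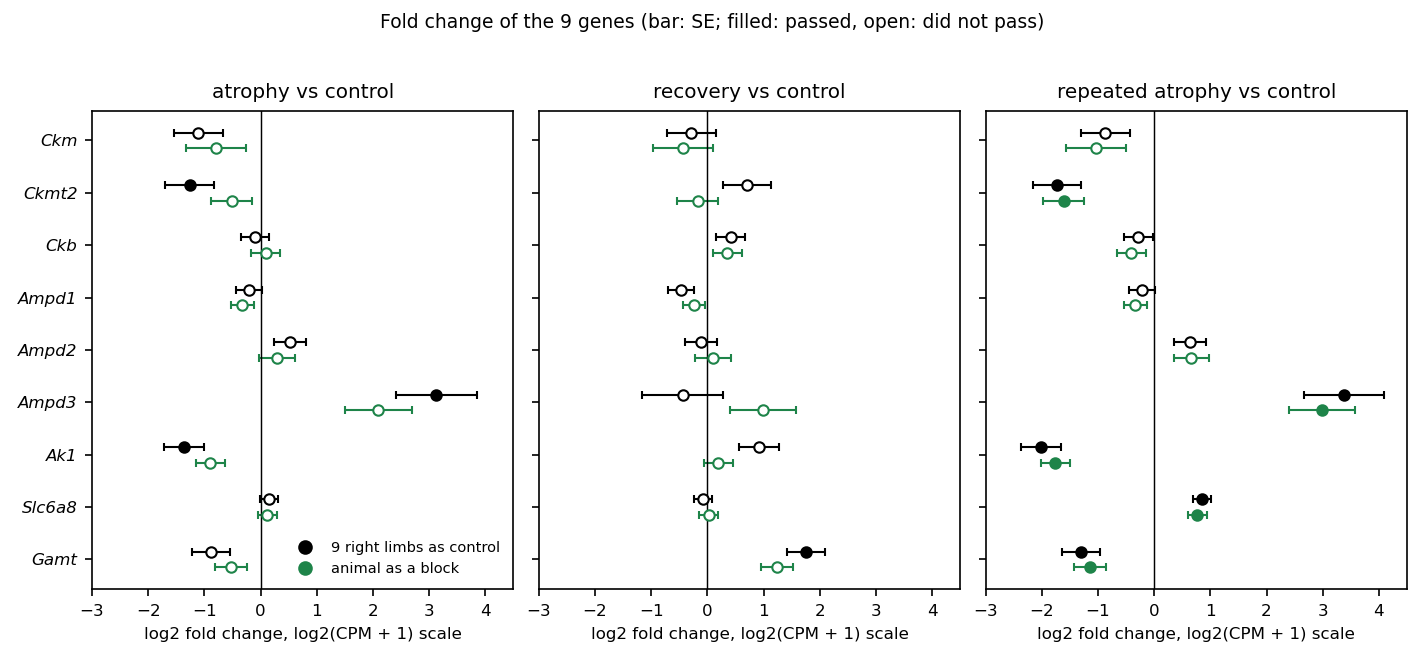
Log2 fold change with SE (bars) of the 9 genes after atrophy, recovery and repeated atrophy, against the 9 control limbs (black) and with the animal as a block (green); filled points passed. After repeated atrophy 5 genes pass in both fits, and after atrophy the 3 black points that pass have no green counterpart that does.

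Between treated groups, 4 of 9 members passed from atrophy to recovery (17.9% of all rows, 3.34% higher and 14.5% lower): Ckmt2, Ak1 and Gamt rose and Ampd3 fell. From recovery to repeated atrophy 5 of 9 passed (27.2% of all rows, 21% higher and 6.29% lower), with Ckmt2, Ak1 and Gamt lower, Ampd3 higher and Slc6a8 higher by 0.93 (SE 0.19, limma adjusted p = 0.0033; with the block 0.74, adjusted p = 0.157). Both comparisons use the same 3 recovery limbs. Ckb, which fell by 1.01 (adjusted p = 0.016) in the latter comparison when rescaled (21.7% of all rows), had an adjusted p of 0.102 without rescaling. Taken as differences of within-animal differences, 0 members passed in either comparison (0.0143% and 0.0855% of all rows).

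Repeated and initial atrophy were not told apart for any member: 0 of 9 passed, beside 0.0356% of all rows, and 884 of 14031 rows had an unadjusted p below 0.05. Slc6a8 had the smallest adjusted p of the 9 (0.301). Its 3 repeated atrophy limbs were all above its 3 atrophy limbs. The share of all rows whose limbs separate in this way was not counted, so the separation is not taken as a difference.

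Sham surgery without TTX gave no passing member. Sham left limbs vs control had 0 of 9 (0.0% of 14134 rows, with 1743 rows at an unadjusted limma p below 0.05), and sham left vs sham right had 0 of 9 (0.0%, with 114 rows below 0.05). The sham rats differed from each other more than their limbs did. Rat 379, the sham of the repeated atrophy time, had 264 and 198 CPM of Ampd3, 64.8 and 80.4 CPM of Ak1, 140 and 217 CPM of Ckmt2 and 1.85 and 2.98 CPM of Gamt in its left and right limbs. Rat 377, the sham of the recovery time, had 44.8 and 25.8 CPM of Ampd3, 551 and 513 CPM of Ak1, 1842 and 1379 CPM of Ckmt2 and 15.2 and 10.6 CPM of Gamt. Rat 354, the sham of the atrophy time, lay between them for Ak1, Ckmt2 and Gamt in both limbs. Summed endothelial markers (6 genes) ranged from 220 to 495 CPM in sham left and from 203 to 581 CPM in sham right limbs, against 184 to 259 CPM in control. Among them Pecam1 had 221 and 245 CPM in the left and right limbs of rat 354. The part of these markers in the sham comparisons was not tested.

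Against the sham left limbs, 0 members passed after atrophy (0.0212% of all rows, with 1798 rows at an unadjusted limma p below 0.05), 1 after recovery (Gamt, log2 FC 2.28, SE 0.52, adjusted p = 0.031; 1.89% of all rows) and 1 after repeated atrophy (Slc6a8, 0.96, SE 0.21, adjusted p = 0.0068; 8.23% of all rows). The Slc6a8 call was lost under quantile normalization (0.68, adjusted p = 0.078) and without sham rat 354 (0.83, adjusted p = 0.052). Ampd3 after repeated atrophy (330 to 581 CPM) did not overlap the sham left limbs (38.7 to 264 CPM) but had an adjusted p of 0.139. As differences of left minus right, Ak1 (-1.72, SE 0.34, adjusted p = 0.033) and Slc6a8 (0.86, SE 0.22, adjusted p = 0.049) differed between repeated atrophy and sham (4.36% of all rows), and the call for Gamt after recovery was lost (adjusted p = 0.795; 0.0% of all rows). When rescaled, the mean left minus right of Slc6a8 was 0.39 ± 0.31 after repeated atrophy and -0.10 in the sham rats, against 0.77 and -0.08 without rescaling. Without sham rat 379 the Gamt call was also lost (adjusted p = 0.208).

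**Figure D4:**
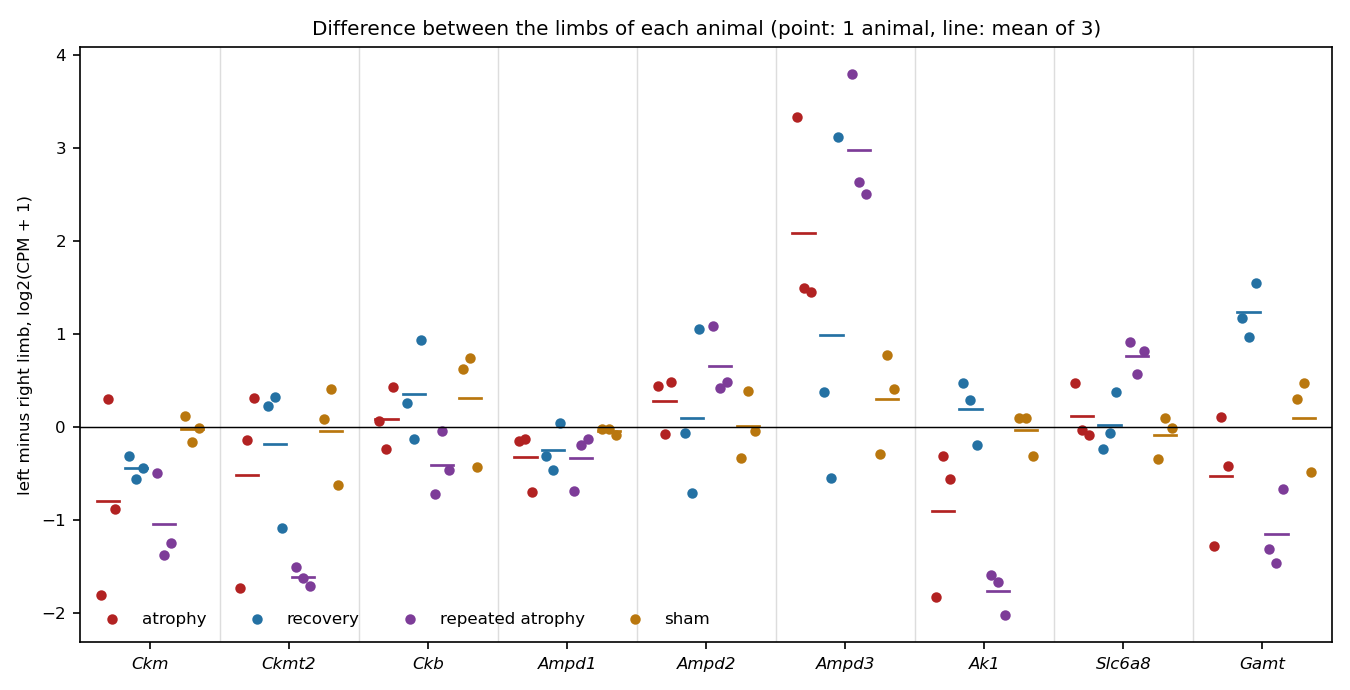
Left minus right limb of each rat on the log2(CPM + 1) scale for the 9 genes; each point is 1 rat and each line the mean of 3. For Ampd3 all 6 rats under TTX lie above the 3 sham rats, and for Ak1 the 3 repeated atrophy rats lie between -2.02 and -1.58 against -0.31 to 0.10 in the sham rats.

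The control limbs themselves differed with the time point of the animal. Right limbs of the 3 recovery rats had 7.44 to 20.5 CPM of Ampd3, below the 6 right limbs of the rats then under TTX in the other leg (29.1 to 251 CPM). The same 3 limbs had the highest Ak1 (591 to 723 CPM, against 161 to 480) and the highest Ckmt2 (1533 to 1702 CPM, against 329 to 1061). Of the right limbs of the sham rats, which had no TTX, that of rat 377, the sham of the recovery time, also had the least Ampd3 (25.8 CPM) and the most Ak1 (513 CPM) and Ckmt2 (1379 CPM). With 1 sham rat at each time point, time and animal cannot be told apart.

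Within the 24 limbs, Ckmt2 and Ak1 had nearly the same pattern (Pearson r = 0.96 on log2 values, a description over limbs that come in pairs and in 6 groups). Among 6544 genes with a mean of at least 10 CPM, those most like Ckmt2 included Ndufa9 and Ndufs3, which encode subunits of respiratory complex I (r = 0.98 and 0.97). Those most like Ak1 were Ndufs3, Pgam2 and Casq1 (r = 0.98, 0.97 and 0.97), the latter a calcium-binding protein of the sarcoplasmic reticulum. Ampd3 was most like Pdlim3, Myog and Cd63 (r = 0.97, 0.96 and 0.96), of which Myog is the myogenic factor myogenin. Ckm was most like the glycolytic gene Gapdh (r = 0.93), Gamt like Sh3kbp1 (r = 0.96), Slc6a8 like Slc39a13 (r = 0.90) and Ampd1 like Rcsd1 (r = 0.84).

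The other genes of creatine and purine nucleotide metabolism numbered 61 in 9 lists, of which 57 were tested. After atrophy 16 rose and 1 fell (22.6% of all rows passed), with a median log2 FC of 0.31 against 0.22 over all rows. Rescaled, 4 rose and 3 fell (9.68% of all rows passed), so the predominance of rises depended on the scaling. After recovery 3 rose and 2 fell (7.73% of all rows passed), with a median of 0.11 against 0.02. After repeated atrophy 23 rose and 6 fell (34.3% of all rows passed), with a median of 0.19 against 0.20. When rescaled, 13 rose and 9 fell there (25.2% of all rows passed). Under the block none passed in the atrophy or recovery comparison (0 of 57 each), where 0.0% and 0.0641% of all rows passed. In repeated atrophy 21 rose and 3 fell under the block, where 27.1% of all rows passed.

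Of the other adenylate kinase genes 1 of 7 rose after atrophy (20.3% of all rows) and 0 passed after recovery (7.73%). After repeated atrophy 1 rose and 1 fell (28.1% and 6.24% of all rows). When rescaled 0 rose and 1 fell in both silenced groups, where 9.68% and 25.2% of all rows passed. After repeated atrophy the median of these genes was 0.03 against 0.20 over all rows. In the purine nucleotide cycle, 1 of 2 further genes rose after atrophy and after repeated atrophy (0 and 1 when rescaled), beside 20.3% and 28.1% of all rows.

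Creatine synthesis has 1 further gene on the lists, Gatm, which encodes the enzyme before Gamt. Gatm rose after recovery, from 3.67 to 8.26 CPM in control to a mean of 21.1 CPM in recovery limbs, all 3 above control (log2 difference 1.76, SE 0.29, limma adjusted p = 0.0029). With the block it was 1.60 (adjusted p = 0.118). Like Gamt, it rose in the limbs in which 5 of 6 fibroblast markers rose, and 4.4% of all rows were higher there.

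In the list of nucleotide dephosphorylation and adenosine genes, 2 of 9 rose after atrophy and 5 of 9 after repeated atrophy, beside 20.3% and 28.1% of all rows (2 and 3 of 9 when rescaled). Slc29a1, an equilibrative nucleoside transporter, had 20.3 to 75.2 CPM in control, 81.7, 234 and 271 CPM after atrophy (log2 FC 1.87, SE 0.44, limma adjusted p = 0.0097) and 337, 405 and 513 CPM after repeated atrophy (log2 FC 3.11, SE 0.44, adjusted p = 1.1e-04). Nt5c3b, a cytosolic nucleotidase gene, rose after atrophy by 0.91 (SE 0.21, adjusted p = 0.0093). With the block neither Slc29a1 nor Nt5c3b passed after atrophy (adjusted p = 0.178 and 0.181), and Slc29a1 passed after repeated atrophy (2.71, adjusted p = 0.0053).

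For purine salvage and breakdown, 4 of 10 rose and 1 fell after atrophy, and 5 rose and 1 fell after repeated atrophy, beside the same shares of all rows. When rescaled, 1 rose and 1 fell after atrophy, and 3 rose and 1 fell after repeated atrophy. Impdh1, an IMP dehydrogenase on the way to GMP, rose after repeated atrophy from 7.80 to 25.5 CPM to 53.1, 54.5 and 64.0 CPM (log2 FC 2.08, SE 0.36, limma adjusted p = 4.2e-04). Gmpr, which returns GMP to IMP, fell from 136 to 195 CPM to 60.2, 67.8 and 80.2 CPM (log2 FC -1.28, SE 0.19, adjusted p = 1.6e-04). Purine synthesis genes rose in 4 of 7 after atrophy and 5 of 7 after repeated atrophy (20.3% and 28.1% of all rows rose), and in 0 and 2 of 7 when rescaled.

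AMP-activated protein kinase, the sensor of AMP, changed in 4 of 8 subunit and upstream genes after repeated atrophy, 2 higher and 2 lower, while 34.3% of all rows passed. The catalytic Prkaa1 rose (log2 FC 1.43, SE 0.27, limma adjusted p = 8.5e-04) and the muscle subunit Prkag3 rose (log2 FC 1.86, SE 0.39, adjusted p = 0.0017). Prkab1 fell by 0.35 (SE 0.13, adjusted p = 0.040) and did not pass with the block (adjusted p = 0.191), and Prkaa2, with a mean of 2.34 CPM against 5.59 in control, also fell (adjusted p = 0.0024). After recovery Stk11, the upstream kinase, fell by 0.61 (SE 0.18, adjusted p = 0.046; block 0.259).

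Of the 12 genes of ATP exchange and nucleoside diphosphate kinases, 3 rose and 2 fell after repeated atrophy (28.1% and 6.24% of all rows), and 2 rose and 4 fell when rescaled. In that comparison Slc25a4, the adenine nucleotide translocase of muscle, fell from 2869 to 5423 CPM to 1581, 1772 and 1956 CPM (log2 FC -1.34, SE 0.25, limma adjusted p = 6.4e-04), and the phosphate carrier gene Slc25a3 fell by 0.72 (SE 0.20, adjusted p = 0.0084; block 0.069). Slc25a5, another translocase gene, had 17.2 to 32.1 CPM in control and 35.7, 38.0 and 47.1 CPM in recovery limbs (a rise of 0.83, SE 0.24, adjusted p = 0.042; block 0.255). Nme2, a nucleoside diphosphate kinase gene whose reads may be shared with the near-identical Nme1, rose after atrophy by 0.80 (SE 0.16, adjusted p = 0.0067) and after recovery by 0.55 (SE 0.16, adjusted p = 0.046), and the first did not pass when rescaled (adjusted p = 0.060). Nme6 fell after recovery by 0.65 (SE 0.19, adjusted p = 0.044; block 0.327). With the block Nme2 passed neither after atrophy (adjusted p = 0.188) nor after recovery (adjusted p = 0.200).

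**Figure D5:**
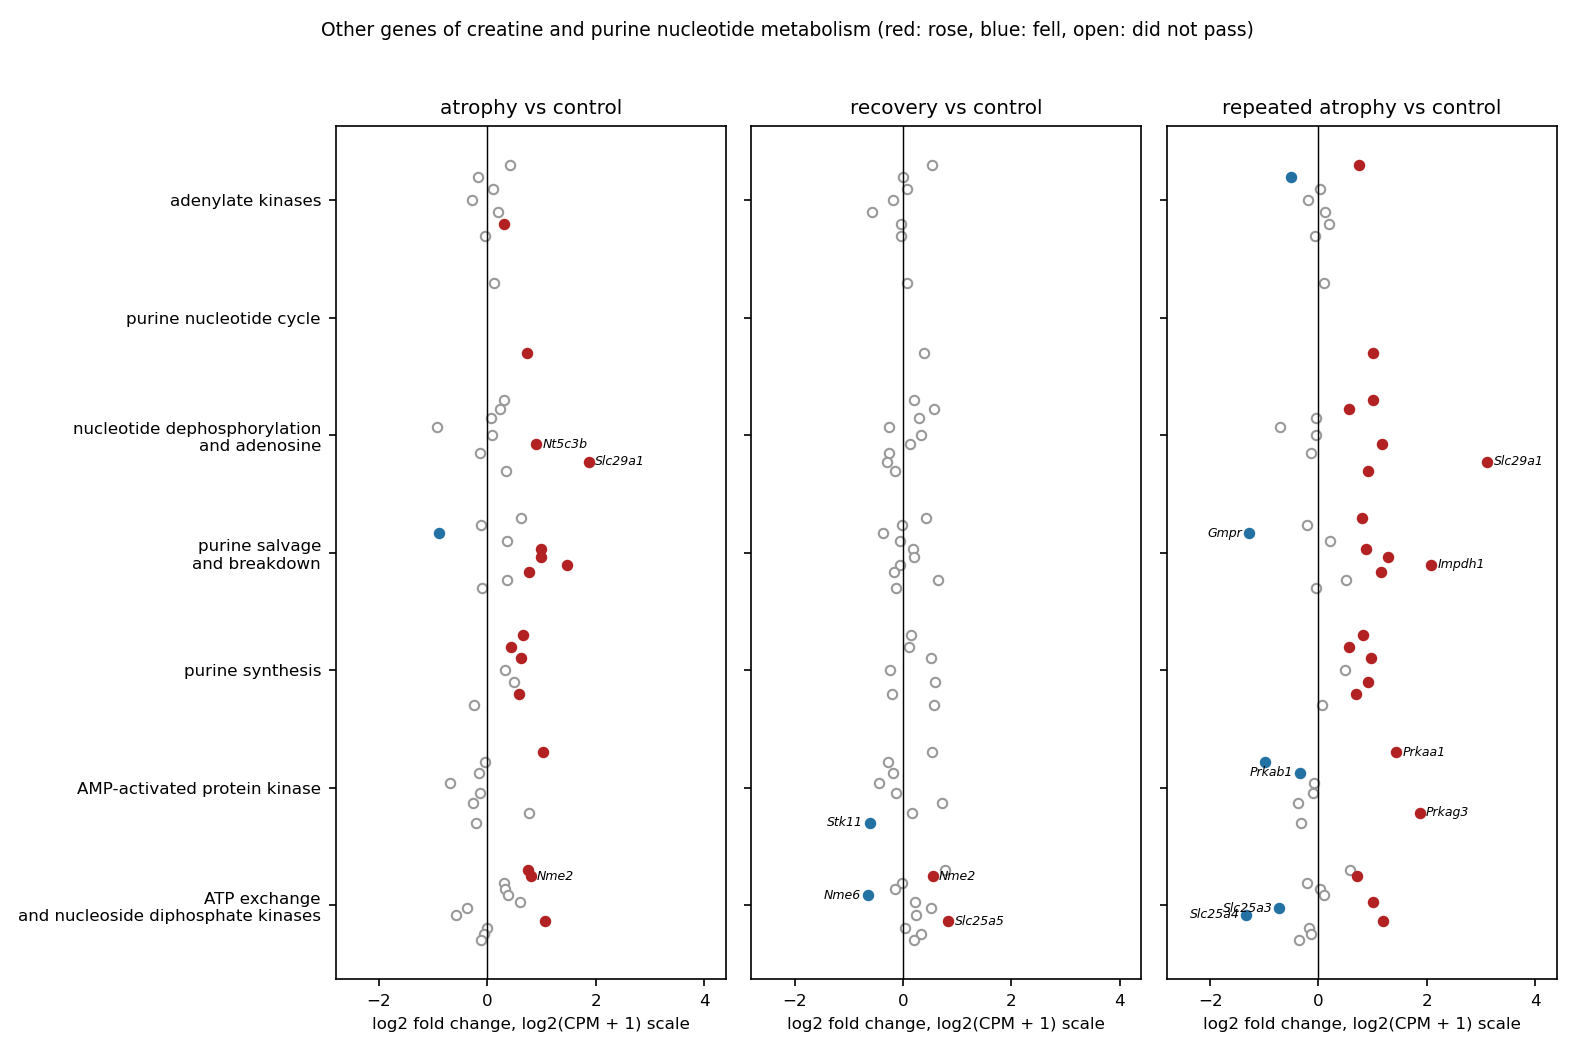
Log2 fold change of the other genes of creatine and purine nucleotide metabolism by list, after atrophy, recovery and repeated atrophy; each point is 1 gene, red rose, blue fell and open did not pass (Gatm and Ckmt1, each alone on a list, are not drawn). Slc29a1 has the largest rise after repeated atrophy (3.11), and Slc25a4 (-1.34) and Gmpr (-1.28) the largest falls.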

How the data were processed

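RNA was measured in both TA muscles of 12 rats, and 24 of the 27 value columns of the table were used. The other 3 columns match no sample record and were left out. According to the labels and methods, contaminant reads were removed with Bowtie2 (2.2.5), reads were aligned to rn7 with STAR and processed in Partek. The deposited values are CPM, scaled by the authors so that each column sums to 1000000, although their methods name a median of ratios normalization, and the design of the tests had assumed the latter. The counting step and annotation are not given in the sources used here. Coordinates are those of the table. Between 86.3% and 88.3% of low values (below 30 reads, tolerance 0.01) were whole multiples of the smallest step, so reads were not recovered and no count test was run.

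After 28 duplicate rows were dropped, limma 3.58.1, run in R 4.3.3 with its trend option, was applied to log2(CPM + 1), once to the 18 limbs of the TTX rats (14031 rows above 0 in at least 3 limbs) and once to all 24 limbs for sham comparisons (14134 rows). Passing meant a change of 1.2 times or more with an adjusted p (Benjamini-Hochberg, all rows) no higher than 0.05. The log2(CPM + 1) scale understates changes of low genes such as Gamt, Ckb and Ampd2. Left and right limbs are paired by the rat number in the labels, and the rat is the block. The correlation of left and right deviations from the group means was 0.68 to 0.90 in the sham rats and -0.51 to 0.60 in the TTX rats. Separate animals are the replicates, and no 2 limbs held the same values. The fits were tested on simulated data. Alternatives were other pseudocounts, filters and scalings, no trend, rows summed per symbol, 12 right limbs as control and each limb left out. The members, lists, rule for named pathway genes (the 4 largest rises and falls with no overlap and at least 10 CPM; Prkaa2 was added after its values were seen) and tests were chosen with earlier results of these data known. Of the listed genes, those without a row above 0 in at least 3 limbs were not analysed here. Python 3.11.15 and numpy 2.4.6 were used. Motifs were searched on both strands of the RefSeq promoters. One gene among those most like Ckmt2 is not reported here.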

Additional observations from a re-analysis of the deposited data

Results flagged for a closer look

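Among the 9 control limbs, Ampd3 in the right limb of rat 372 (251 CPM) lay far from the others, with a gap of 0.771 of the whole range. Ckb in the right limb of rat 366 (15.2 CPM) did so with a gap of 0.590. Chance flags about 1 in 20 groups, and 9 genes were examined in the control limbs.

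Left minus right differed between repeated atrophy and sham rats for Ak1 (-1.72 on the log2 scale, limma adjusted p = 0.033; lower in 3 of 3 repeated atrophy rats and 1 of 3 sham rats). It differed for Slc6a8 as well (0.856, adjusted p = 0.0494; higher in 3 of 3 and 1 of 3), with means of 0.39 and -0.10 in the 2 groups when rescaled. For Gamt the difference between repeated atrophy and recovery was -2.38, with all 3 rats of each group on opposite sides of 0, but the adjusted p was 0.0637.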

How the results depend on the processing

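Few members and limbs limit these counts. The number of members that passed after atrophy was 3, but 5 with a mean of at least 10 CPM, 1 with 12 right limbs as control, 0 with the replicate block (the animal of each limb, which the labels give) and 0 to 5 with 1 limb left out. After recovery it was 1, and 0 with the block. It was 0 with the block in recovery vs atrophy (2 to 4 with 1 limb left out), in repeated atrophy vs recovery (5 to 6) and in recovery vs sham left (0 to 3). In repeated atrophy vs sham left it was 2 with the block, 0 under quantile normalization and 0 to 1 with 1 limb left out, and in repeated vs initial atrophy 0 to 1. Recovery vs control stayed at 1 and repeated atrophy vs control at 5 with 1 limb left out, and the block changed no call of the latter.

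Of the 57 other genes, 17 passed after atrophy, 7 after either rescaling (trimmed mean or median of ratios), 10 under quantile normalization, 0 with the block and 0 to 22 with 1 limb left out. After recovery 5 passed, 3 with a pseudocount of 10, 8 with 12 right limbs, 0 with the block and 1 to 7 with 1 limb left out. The range was 23 to 29 after repeated atrophy. The cause of these shifts was not tested. No member that passed a comparison changed sign in it under the alternatives run, but some that did not pass did: with the block, Ckmt2 after recovery went from 0.70 to -0.17 and Ampd3 from -0.44 to 0.99, and Ampd2 and Slc6a8 after recovery and Ckb after atrophy also changed sign, as did Slc6a8 after atrophy when rescaled. At the inferred depths 1 read is at most 0.0530 CPM, and members below 20 CPM are measured with counting error that CPM does not show.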
